A study of Mus musculus with 4 samples.

Results

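Long noncoding RNAs are transcripts with no sizeable open reading frame, and several of the most strongly transcribed RNAs of the mouse brain belong to them. A group of 8 was examined in the ischemic hippocampus: AA465934, a little characterized transcript, and the RNAs Malat1, Meg3, Rian, Miat, Neat1, Snhg11 and Gas5, against which it was read. They were taken by symbol and make up 8 of the 22609 gene symbols counted. AA465934 was chosen for its measured difference in counts between the genotypes, and the other 7 were set beside it in the same contrast. The difference of these 8 RNAs between the genotypes is therefore given as a description, without a test.

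Hippocampal RNA was sequenced in 4 libraries, replicates 1 and 2 of FLOX+GCI and replicates 1 and 2 of FBN-ARO-KO+GCI. All mice were ovariectomized females of 3 to 5 months that had undergone global cerebral ischemia (GCI), 20 min of occlusion of both common carotid arteries, and were sampled after 24 h of reperfusion. FBN-ARO-KO mice lose Cyp19a1, which encodes the estrogen-synthesizing enzyme aromatase, where the CaMKIIα promoter drives Cre, that is in excitatory neurons of the forebrain, so that glia and other neurons of the hippocampus keep the gene. FLOX mice are the floxed controls. Both groups thus lack ovaries and both are ischemic, and sham-operated mice are not analysed here. The labels do not say that the libraries of a group came from separate mice, so the standard errors and p-values below measure the spread between these libraries, which may be technical.

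The libraries held 24333396 to 33076795 counts on genes, and 3 counts, taken as the floor, corresponded to 0.0905 to 0.122 CPM (each count over its library's total, times 1e6, with TMM scaling). The 8 RNAs together took 0.206% to 0.272% of the counts, and all of them were among the 14527 genes that passed the filter on low counts. Cyp19a1 itself had 4, 1, 2 and 2 counts, too few to check the genotype labels. All the neuron, astrocyte, oligodendrocyte and microglia markers examined passed the filter, so the main cell types of the hippocampus were represented. In bulk tissue, fewer cells of a type and less RNA per cell cannot be told apart.

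These RNAs act in different ways. Malat1 and Neat1 are transcribed from neighboring genes and stay in the nucleus, Malat1 in nuclear speckles and Neat1 as the scaffold of paraspeckles, and Miat is a further nuclear RNA of neurons. Meg3 and Rian are expressed from the maternal copy of the imprinted Dlk1-Dio3 region and contain small RNAs. Gas5 and Snhg11 carry small nucleolar RNAs (snoRNAs) in their introns, and the Gas5 transcript is degraded by nonsense-mediated decay when it is translated.

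AA465934 had no entry in the GENCODE M1 annotation of NCBIM37, the genome build that is also called mm9. The 300 bases around its start in RefSeq matched NCBIM37 exactly at 1 place, chr11:83104951-83105250 on the plus strand, which puts the start of the gene at position 83105201 of chromosome 11. RefSeq gives the gene a span of 2939 bases, and the snoRNA gene Snord7 lies within that span on the same strand. Its promoter is shown because AA465934 is the RNA that differed most between the genotypes. The first of the 2 promoters of Meg3 is shown because Meg3 had the highest count of the 8. The second of the 2 promoters of Gas5 is shown because Gas5 had the highest log2 fold change. The sequences come from RefSeq on GRCm38.p6 and hold 250 bases before the start and 50 from it, in the direction of transcription. They lie at chr11:83291449-83291748, chr12:109540746-109541045 and chr1:161034916-161035215, all on the plus strand. Capitals mark matches on either strand to the interferon response core GAANNGAAA, the cAMP response element TGACGTCA, CCAAT or TATAA, and capitals run together where matches overlap.
AA465934: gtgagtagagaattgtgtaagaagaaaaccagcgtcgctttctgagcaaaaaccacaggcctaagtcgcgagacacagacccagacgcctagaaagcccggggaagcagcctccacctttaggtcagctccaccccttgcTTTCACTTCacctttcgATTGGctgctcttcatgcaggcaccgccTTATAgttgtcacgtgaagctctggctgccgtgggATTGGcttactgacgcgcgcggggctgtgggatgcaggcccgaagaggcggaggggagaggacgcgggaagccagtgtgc
Meg3: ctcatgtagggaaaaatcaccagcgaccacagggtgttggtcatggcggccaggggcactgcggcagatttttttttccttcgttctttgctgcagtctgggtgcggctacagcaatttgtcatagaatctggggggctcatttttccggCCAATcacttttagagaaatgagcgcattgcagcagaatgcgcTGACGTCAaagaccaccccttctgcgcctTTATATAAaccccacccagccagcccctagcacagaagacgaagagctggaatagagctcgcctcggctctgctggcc
Gas5: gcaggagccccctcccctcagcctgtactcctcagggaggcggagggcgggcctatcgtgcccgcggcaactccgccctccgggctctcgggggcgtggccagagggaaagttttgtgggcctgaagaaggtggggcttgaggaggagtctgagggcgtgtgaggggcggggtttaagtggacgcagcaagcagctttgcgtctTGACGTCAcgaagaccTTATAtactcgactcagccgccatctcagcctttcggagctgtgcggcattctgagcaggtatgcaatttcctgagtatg

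In the AA465934 promoter, every match was read on the minus strand. The match to GAANNGAAA began 110 bases before the start, CCAAT matches 93 and 30 bases before it, and TATAA 65 bases before it. The letters GAANNGAAA occur in 7.52% of the 32851 RefSeq promoters of this length, CCAAT in 37.4% and TATAA in 24.9%. Promoters of 7 of the 8 RNAs were searched, those matched in the table, which did not include Neat1. Among them GAANNGAAA was also found in the promoters of Rian and Snhg11 and in the second promoter of Meg3. The promoters of Meg3 and Gas5 shown above share TGACGTCA, 57 bases and 46 bases before the start, a match found in 1.79% of promoters. The second promoter of Meg3 and the first of Gas5, not shown, lack it. A match describes the sequence only, and no binding was measured here.

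AA465934 was lower in both FBN-ARO-KO+GCI libraries than in either FLOX+GCI library. In replicates 1 and 2 of FLOX+GCI it was counted 169 and 150 times, and in those of FBN-ARO-KO+GCI 16 and 11 times. Scaled by library, these were 6.74 and 6.08 CPM against 0.483 and 0.375 CPM. The groups did not overlap, and the FBN-ARO-KO+GCI values remained above the floor of 3 counts. The means were 6.41 ± 0.466 CPM and 0.429 ± 0.0758 CPM (SD, n = 2), 14.7-fold lower in FBN-ARO-KO+GCI by the fit, with a fitted log2 fold change of -3.88 (SE 0.26). The replicates of a group differed by 0.15 and 0.31 on the log2 scale (replicate 2 minus replicate 1 was -0.15 in FLOX+GCI and -0.31 in FBN-ARO-KO+GCI).

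**Figure D1:**
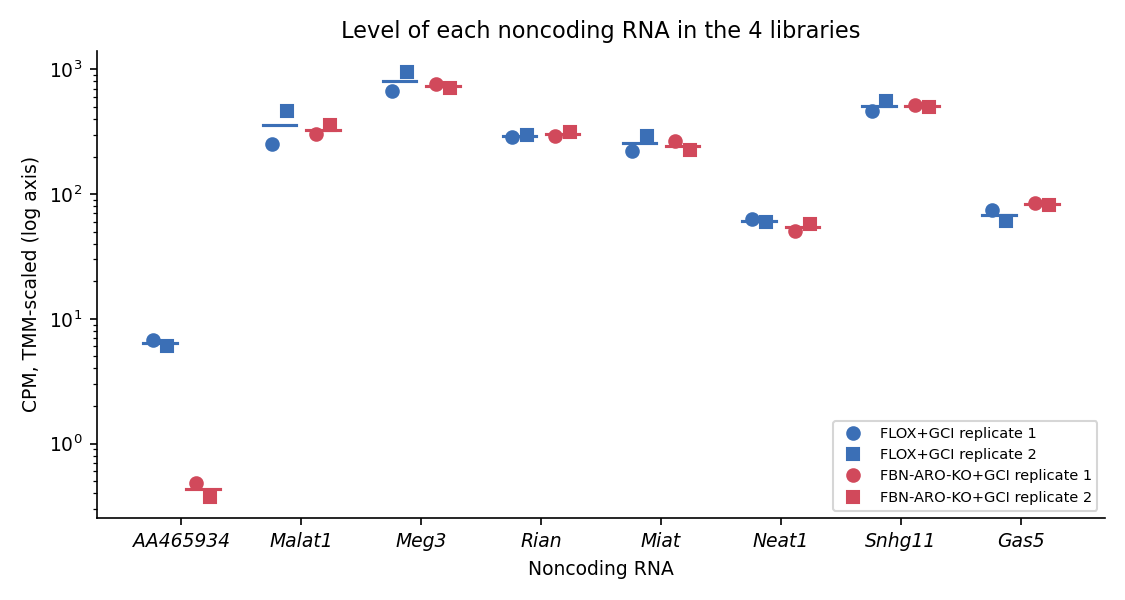
Level of each of the 8 RNAs in CPM (y, log axis) for FLOX+GCI in blue and FBN-ARO-KO+GCI in red, with 1 point per library (circle, replicate 1, and square, replicate 2) and a line at the mean of each group. AA465934 lies at 6.08 and 6.74 CPM in the FLOX+GCI libraries against 0.375 and 0.483 CPM in the FBN-ARO-KO+GCI libraries, whereas the groups of Malat1, Meg3, Rian, Miat and Snhg11 overlap.

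The log2 fold change of AA465934 was the lowest of the 14527 genes tested, 15 of which lay under -2. The next gene was Ptx3, a secreted pentraxin of inflammation, at -3.87 (SE 1.18). Ptx3 had 11 and 189 counts in the FLOX+GCI libraries and 7 and 10 in the FBN-ARO-KO+GCI libraries, so that a single library carried its difference, while both FLOX+GCI libraries were high for AA465934. By the quasi-likelihood test of edgeR, 2 of all the genes tested passed a Benjamini-Hochberg adjusted p of 0.05, which is 0.0138% of them. AA465934 was among them, and since it was chosen on this contrast nothing is read from that. The other was Xaf1. Without FBN-ARO-KO+GCI replicate 1 or without FBN-ARO-KO+GCI replicate 2, 0 genes passed, and without FLOX+GCI replicate 1 or 2, 193 and 127 genes passed.

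The genes whose levels moved over the 4 libraries most like those of AA465934 were, in order, Xaf1, Snai1, Cxcl10, Cybb and Ctxn3, measured as the root mean square distance between log2 CPM values centred per gene. The distance was 0.786 for Xaf1, an interferon-inducible gene that promotes apoptosis, which had 258 and 278 counts in the FLOX+GCI libraries against 80 and 68 in the FBN-ARO-KO+GCI libraries, a log2 fold change of -2.19 (SE 0.17). Xaf1 lies on the same chromosome, at chr11:72115131-72127235 of NCBIM37, 10.99 Mb from the start of AA465934. Snai1, a transcriptional repressor of epithelial genes, had 19 and 26 counts against 8 and 3. Cxcl10, an interferon-induced chemokine, had 10 and 26 counts against 2 and 3. Cybb, the catalytic subunit of the phagocyte NADPH oxidase, had 25 and 23 counts against 9 and 6, and Ctxn3, a small membrane protein of the cortexin family, had 72 and 73 counts against 26 and 25. Their distances ran up to 0.991. The 7 other noncoding RNAs lay at 1.78 (Neat1) to 2.01 (Gas5) from AA465934, ranks 3640 and 13217 by distance among the genes tested. By this measure any gene that changes little lies far from AA465934, so these distances are not particular to noncoding RNAs. Since Xaf1, Snai1, Cxcl10, Cybb and Ctxn3 were picked by their likeness over the same libraries, the values are a description.

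The genes around AA465934 lay much closer to 0. Of the 5 RefSeq neighbors on the lower side, Slfn14, Gm11427, Gm38924, AI662270 and Slfn3, only the last had enough counts for the test and the first 3 were not in the counts, and of the 5 on the higher side, which include Ap2b1, Gm51912, Rasl10b and Gas2l2, 3 did. Ap2b1, an adaptor subunit of clathrin-mediated endocytosis, had a log2 fold change of 0.08 (SE 0.07), and Rasl10b, a small GTPase of the Ras family, was at -0.17 (SE 0.07). AI662270, a noncoding RNA, had 3 and 2 counts against 4 and 8, and Gas2l2 had 4 and 6 against 6 and 9. Within 1 Mb of AA465934, 26 genes were tested with a median log2 fold change of 0.02, and 12 of them were below 0. Within 10 Mb the median of 203 genes was -0.01, and on the whole of chromosome 11, 58.9% of 1165 genes were below 0, against 51.3% of all genes tested. These shares are not corrected for GC content, which moved with the log2 fold change over all genes (below). The part of GC content in the share of chromosome 11 was not tested.

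**Figure D2:**
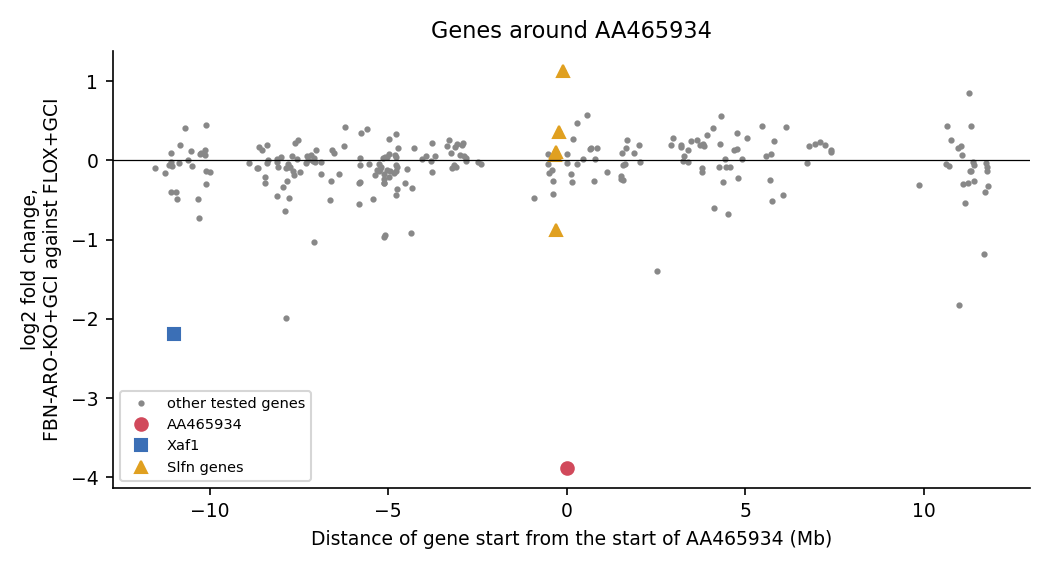
Log2 fold change of FBN-ARO-KO+GCI against FLOX+GCI for the genes tested around AA465934 (grey), plotted by the distance of their start from that of AA465934 in Mb, with AA465934, Xaf1 and the Schlafen genes marked. AA465934 stands at -3.88 at distance 0, Xaf1 at -2.19 at a distance of 10.99 Mb, and the lowest of the 203 genes within 10 Mb, Serpinf2, is at -1.98.

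AA465934 lies among the Schlafen genes, a family of interferon-inducible growth regulators. Of the 9 members listed, 8 were in the files and 5 passed the filter, and 0 of these 5 passed an adjusted p of 0.05 (edgeR) or an unadjusted p of 0.05, while DESeq2 gave none of them an adjusted p. Their log2 fold changes ran from -0.87 (SE 0.51) for Slfn9, with 11 and 11 counts against 9 and 6, to 1.13 (SE 0.66) for Slfn3, with 2 and 8 counts against 16 and 12. Slfn2 and Slfn5, the family members with the most counts here, were at 0.36 and 0.07, and were singled out after their values were seen. The Schlafen genes are close paralogs, and reads that fit more than 1 of them are lost to unique counting, so these values are uncertain.

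Malat1 varied more between the FLOX+GCI libraries than between the genotypes. It had 253 and 460 CPM in the FLOX+GCI libraries against 301 and 357 CPM in the FBN-ARO-KO+GCI libraries, so that both FBN-ARO-KO+GCI values fell between the FLOX+GCI values. The means were 357 ± 146 CPM and 329 ± 39.7 CPM (SD, n = 2), with a log2 fold change of -0.12 (SE 0.24). The gap between FLOX+GCI replicates was 0.86 on the log2 scale, wider than for 96.3% of the genes tested, against a median size of 0.13 over all genes. Malat1 without FLOX+GCI replicate 2 came to a log2 fold change of 0.37, and without FLOX+GCI replicate 1 it was -0.48. The gene lies at chr19:5795690-5802671 on the minus strand (GENCODE M1 on NCBIM37, as for the positions that follow) and consists of 1 exon of 6982 nt. Gm20417 overlaps it on the opposite strand, and as it is not given in the sources used here whether reads were counted by strand, reads of both could be mixed.

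Neat1, the neighbor of Malat1 at chr19:5824708-5845478 on the minus strand, was steadier. It had 62.7 and 59.3 CPM in the FLOX+GCI libraries against 50.5 and 58.0 CPM in the FBN-ARO-KO+GCI libraries. The groups did not overlap, but the nearest values of the 2 groups differed by less than the FBN-ARO-KO+GCI replicates did. The log2 fold change was -0.17 (SE 0.09), from 61.0 ± 2.42 to 54.3 ± 5.33 CPM (SD, n = 2). Frmd8, the gene next to Neat1 on the side away from Malat1, had a log2 fold change of -0.13.

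Miat, like Malat1, was higher in the second FLOX+GCI library, with 220.0 CPM in replicate 1 and 291 CPM in replicate 2. Its FBN-ARO-KO+GCI values were 266 and 224 CPM, within that range. The means were 256 ± 50.2 and 245 ± 29.7 CPM (SD, n = 2), for a fitted log2 fold change of -0.06 (SE 0.14). Miat lies at chr5:112642248-112657968 on the minus strand and has a longest transcript of 8760 nt in 7 exons.

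The paraspeckle proteins, which assemble on Neat1, were examined as a list of 11 genes, all of which passed the filter. Of these, 0 passed an adjusted p of 0.05 by edgeR and 3, Tardbp, Matr3 and Cpsf6, by DESeq2, which called 4.02% of the 6921 genes it gave an adjusted p. At an unadjusted p of 0.05, 5 were higher and 1 was lower in the FBN-ARO-KO+GCI libraries, against 16.5% of all genes tested in either direction. The median log2 fold change was 0.22, and the highest value was 0.44 (SE 0.14) for Cpsf6, a subunit of cleavage factor Im. After correction for GC content and transcript length, 2 were higher and 1 lower at an unadjusted p of 0.05, against 8.12% and 3.51% of all genes in that fit, and the median was 0.14, against 0.03 for all genes.

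Meg3 had the highest counts of the 8 RNAs, and like Malat1 it was highest in FLOX+GCI replicate 2. It had 669 and 953 CPM in the FLOX+GCI libraries against 758 and 703 CPM in the FBN-ARO-KO+GCI libraries, so that the groups overlapped. Its fitted log2 fold change was -0.15 (SE 0.15), from 811 ± 201 to 730 ± 38.5 CPM (SD, n = 2). Without FLOX+GCI replicate 2 it was 0.12. Meg3 lies at chr12:110779211-110809936 on the plus strand and has a longest transcript of 14548 nt in 5 exons. The microRNA genes Mir770 and Mir1906-1 within it had 0 counts in every library, and Gm17639 overlaps it on the opposite strand. A read that overlaps both a small RNA gene and its host can be left unassigned, so these counts do not show whether the small RNAs were present.

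Rian, next in the same imprinted region at chr12:110842155-110899919, was level between the libraries, with 286 and 297 CPM in the FLOX+GCI libraries against 293 and 314 CPM in the FBN-ARO-KO+GCI libraries. Its groups overlapped, and the log2 fold change was 0.06 (SE 0.07). Rian is the RNA of the 8 with the lowest GC content, 36.5%. RefSeq places 11 snoRNA and 3 microRNA genes within it, of which the snoRNA gene AF357359 had 42, 37, 60 and 96 counts, FLOX+GCI given first. Mirg, a further maternally expressed RNA of this region, had 132 and 190 counts against 217 and 148, a log2 fold change of -0.16 (SE 0.24).

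Of the 5 coding genes listed for the Dlk1-Dio3 region, 4 passed the filter. Of these 4, 0 passed an adjusted p of 0.05 by edgeR, 0 by DESeq2, which gave 1 of them an adjusted p, and 2, Dlk1 and Begain, were lower at an unadjusted p of 0.05, against 7.82% of all genes tested. Dlk1, a paternally expressed membrane protein related to the Notch ligands, had 18.5 ± 0.638 CPM in FLOX+GCI and 13.1 ± 0.461 CPM in FBN-ARO-KO+GCI (SD, n = 2), a log2 fold change of -0.51 (SE 0.12, adjusted p = 0.238 by edgeR), the lowest of the list. Dio3, the thyroid hormone inactivating deiodinase at the other end of the region, had the highest value, 0.08 (SE 0.16). These 4 genes had a GC content of 53.6% to 64.0%, and after correction for GC content and length 1 of them was lower at an unadjusted p of 0.05 (3.51% of all genes) and the median was -0.05.

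Snhg11 had 466 and 555 CPM in the FLOX+GCI libraries against 521 and 501 CPM in the FBN-ARO-KO+GCI libraries. Both FBN-ARO-KO+GCI values fell between the FLOX+GCI values, and the means of 510 ± 63.2 and 511 ± 13.9 CPM (SD, n = 2) gave a log2 fold change of 0.00 (SE 0.09). Snhg11 lies at chr2:158201374-158211881 on the plus strand, and GENCODE M1 lists it as a protein-coding gene whereas RefSeq lists it as a long noncoding RNA.

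Gas5 was the only RNA of the 8 with higher values in both FBN-ARO-KO+GCI libraries than in both FLOX+GCI libraries. It had 74.6 and 60.5 CPM in the FLOX+GCI libraries against 84.1 and 81.7 CPM in the FBN-ARO-KO+GCI libraries. The log2 fold change was 0.30 (SE 0.11), from 67.6 ± 9.97 to 82.9 ± 1.70 CPM (SD, n = 2), and the gap between the FLOX+GCI replicates was -0.30, as large as the difference between the genotypes. Its log2 fold change came to 0.46 without FLOX+GCI replicate 1 and to 0.15 without FLOX+GCI replicate 2. Gas5 lies at chr1:162964553-162968670 on the plus strand, and Zbtb37 overlaps it on the opposite strand.

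The nonsense-mediated decay factors, which act on the Gas5 transcript, were examined as a list of 8 genes that all passed the filter. Of these, 0 passed an adjusted p of 0.05 by edgeR, 1 (Upf2) passed by DESeq2 (4.02% of all genes with an adjusted p there), and 4, among them Upf2, Upf3b and Smg1, were higher at an unadjusted p of 0.05, against 8.72% of all genes tested. The values ran from -0.10 (SE 0.09) for Upf1, the helicase of the pathway, to 0.41 (SE 0.08) for Upf2, its adaptor, with a median of 0.15. After correction for GC content and length, 4 were higher and 0 lower at an unadjusted p of 0.05, against 8.12% and 3.51% of all genes.

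**Figure D3:**
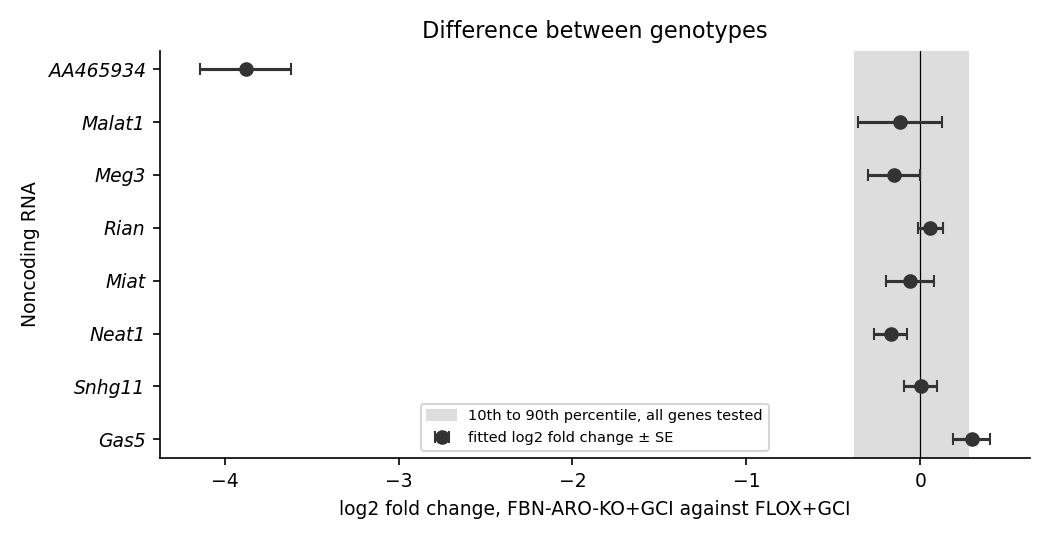
Log2 fold change of FBN-ARO-KO+GCI against FLOX+GCI with its standard error for the 8 RNAs, from the edgeR fit. AA465934 is at -3.88, and the other 7 lie between -0.17 and 0.30, within the shaded band from the 10th to the 90th percentile of all genes tested (-0.37 to 0.27) except Gas5.

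Side by side, the 7 RNAs set against AA465934 had a median log2 fold change of -0.06, and that of all genes tested was -0.01. AA465934 minus the median of the 7 was -3.82 on the log2 scale. The groups did not overlap for 3 of the 8 RNAs, AA465934, Neat1 and Gas5, which is to be read against 51.8% of all genes tested. Within each library, AA465934 was compared with the other RNAs directly. The log2 ratio of AA465934 to Neat1 was -3.22 and -3.28 in the FLOX+GCI libraries against -6.71 and -7.27 in the FBN-ARO-KO+GCI libraries. The log2 ratio to Meg3 was -6.63 and -7.29 against -10.6 and -10.9. These ratios do not depend on the scaling between libraries, and for each of the 7 RNAs both FBN-ARO-KO+GCI ratios were below both FLOX+GCI ratios. All 7 ratios share AA465934, which was chosen for its difference. Their agreement follows from that choice and is a description only.

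**Figure D4:**
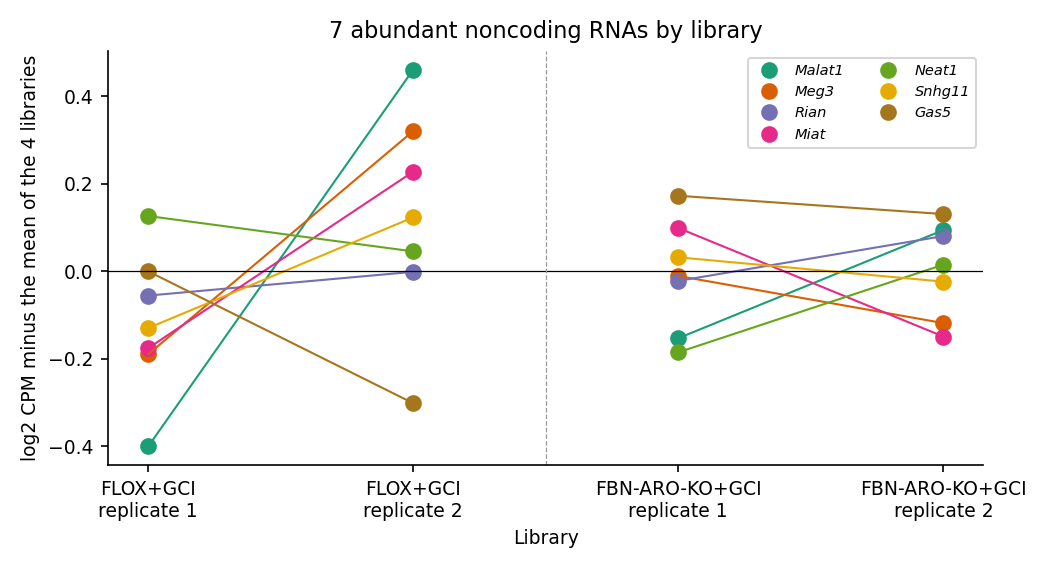
Log2 CPM of the 7 other RNAs in each library, centred on the mean of the 4 libraries, with lines joining the libraries of a genotype to guide the eye. Malat1 shows the widest spread, from -0.40 in FLOX+GCI replicate 1 to 0.46 in FLOX+GCI replicate 2, and Rian the narrowest, from -0.06 to 0.08.

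FLOX+GCI replicate 2 exceeded replicate 1 by 0.86 for Malat1, 0.51 for Meg3, 0.40 for Miat and 0.25 for Snhg11 on the log2 scale, while Gas5 differed by -0.30, Neat1 by -0.08 and Rian by 0.05. In FBN-ARO-KO+GCI the gaps of the 7 RNAs ran from -0.25 for Miat to 0.25 for Malat1. Meg3 and Miat had the most similar profiles over the 4 libraries, at a root mean square distance of 0.0738, and Malat1 and Gas5 the least similar, at 0.461. With 4 libraries these distances are a description.

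Levels of different RNAs were compared per kb of the longest transcript, as the mean of the 4 libraries. Snhg11 stood highest at 87.1 CPM per kb, rank 673 of the 14193 genes with a length. Rian at 56.7, Meg3 at 53.0 and Malat1 at 49.1 CPM per kb followed, and their values over the libraries overlapped, so that their order is not settled. Gas5 at 29.4 and Miat at 28.6 CPM per kb overlapped likewise. Neat1 was much lower at 2.77 CPM per kb, rank 10166, on the 20771 nt of its long isoform. It is therefore not abundant on this scale, although the isoform behind its counts is not known. AA465934 was taken per kb of its RefSeq span. It had 2.29 and 2.07 CPM per kb in the FLOX+GCI libraries against 0.164 and 0.128 CPM per kb in the FBN-ARO-KO+GCI libraries. The FLOX+GCI values came close to Neat1 on this scale, but a span and a long isoform are unlike lengths. Without division by length, the FLOX+GCI means were 6.41 CPM for AA465934 and 61.0 CPM for Neat1.

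The GC content of transcripts moved with the difference between the genotypes. Over 14193 genes, Spearman's rho of GC content and log2 fold change was -0.53, a description across genes of the same 4 libraries, and rho with the gap between replicates was 0.09 in FLOX+GCI and -0.47 in FBN-ARO-KO+GCI. AA465934 had a GC content of 42.8% over its span, and the 1034 genes within 1 percentage point of it had a median log2 fold change of 0.15, on the other side of 0 from its -3.88. The corresponding median was 0.16 for Gas5 and for Malat1, 0.27 for Rian, 0.06 for Neat1 and -0.09 for Miat. After correction for GC content and length, the log2 fold change was -3.98 (SE 0.26) for AA465934 and 0.19 (SE 0.10) for Gas5. It was -0.30 for Malat1, -0.22 (SE 0.08) for Rian, -0.18 for Neat1, -0.16 for Meg3, -0.11 for Snhg11 and 0.01 for Miat. Rian, Snhg11 and Miat thereby changed sign, from 0.06, 0.00 and -0.06.

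**Figure D5:**
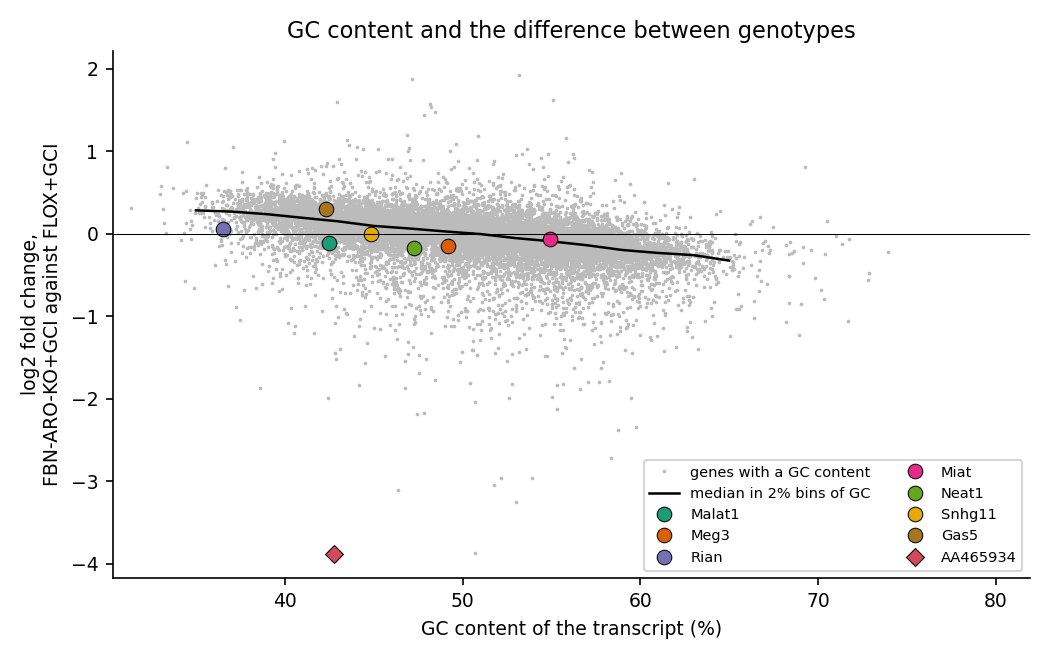
Log2 fold change of FBN-ARO-KO+GCI against FLOX+GCI plotted against the GC content of the transcript in percent, for 14193 genes in grey, with their median in bins of 2 percentage points as a line and the 8 RNAs as colored points. The line falls with GC content, Gas5 lies above it, Malat1, Rian, Neat1, Meg3 and Snhg11 lie below it, and AA465934 lies far below it at -3.88.

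Other long noncoding RNAs of the brain gave no call. Over lists of snoRNA hosts, imprinted and X-linked RNAs, and microRNA hosts and other brain RNAs, 59 RNAs were named, 33 were in the files and 28 passed the filter. Of the 28, 0 passed an adjusted p of 0.05 by edgeR and 0 by DESeq2, which gave 8 of them an adjusted p, and 3 were higher and 0 lower at an unadjusted p of 0.05 in edgeR, against 8.72% and 7.82% of all genes tested. The median log2 fold change was 0.04, with 15 RNAs above 0 and 13 below, and the groups of 10 did not overlap, against 51.8% of all genes tested. The 3 with an unadjusted p under 0.05, named after their values were seen, were Dlx1as at 0.31 (SE 0.11), A330023F24Rik at 0.30 (SE 0.10) and Tug1 at 0.27 (SE 0.11). After correction for GC content and length, 2 were higher at that threshold (8.12% of all genes) and the median was -0.06.

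Among the snoRNA hosts, the class of Gas5 and Snhg11, 9 passed the filter and 0 had an unadjusted p under 0.05. Their median log2 fold change was -0.15, from -0.39 (SE 0.27) for Snhg10 to 0.12 (SE 0.20) for Snhg6. Among the imprinted and X-linked RNAs, the class of Meg3 and Rian, 7 passed the filter and 0 had an unadjusted p under 0.05. Airn, the antisense RNA of the Igf2r locus, was lowest at -0.75 (SE 0.47) with 20 and 18 counts against 10 and 18. Xist, the RNA of the inactive X chromosome, was highest at 0.16 (SE 0.14). Among the microRNA hosts and other brain RNAs, 12 passed the filter, 10 of them above 0, from -0.09 (SE 0.24) for C130071C03Rik to 0.37 (SE 0.40) for Rmst, an RNA of neurogenesis.

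Markers of the main cell types were summed in each library. Neuron markers summed to 11877 and 11724 CPM in FLOX+GCI and to 12058 and 12698 CPM in FBN-ARO-KO+GCI, and oligodendrocyte markers to 3607 and 4123 against 4163 and 4277 CPM. Astrocyte markers summed to 1581 and 1997 against 1653 and 1858 CPM, and microglia markers to 243 and 226 against 224 and 258 CPM. Endothelial markers summed to 168 and 129 against 144 and 107 CPM, choroid plexus markers to 61.1 and 49.6 against 42.3 and 49.1 CPM, and erythroid markers to 4.15 and 3.08 against 1.84 and 2.29 CPM. The neuron, oligodendrocyte, choroid plexus and erythroid sums did not overlap between the groups, to be read beside 51.8% of all single genes tested. A sum follows its most abundant genes. Of the neuron markers, 5 had a log2 fold change above 0, up to 0.20 for Snap25. The other 2, Rbfox3 at -0.17 and Slc17a7 at -0.14, were below 0. Of the choroid plexus markers, Ttr was at a log2 fold change of -0.98 (SE 0.25), and Folr1, Kl and Clic6 were at 0.20, 0.09 and 0.24. The erythroid sum was Alas2 alone, as the 4 hemoglobin symbols listed had 0 counts in every library. This does not show that hemoglobin RNA was absent. A further globin symbol outside the list, Beta-s, was counted and passed an adjusted p of 0.05 by DESeq2. Of the markers, 0 passed an adjusted p of 0.05 by edgeR or by DESeq2, and of the 31 tested 2 were higher and 4 lower at an unadjusted p of 0.05 in edgeR, which is 19.4% of them against 16.5% of all genes. The part of cell composition in the values of the 8 RNAs was not tested.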

How the data were processed

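RNA-Seq was performed on hippocampus from 2 FLOX+GCI and 2 FBN-ARO-KO+GCI libraries, grouped by their labels. Single-end reads of 50 nt had been placed on mm9 with TopHat2 2.0.8b, and the authors deposited HTSeq counts for each gene symbol, not normalized. The labels and the design text name different TruSeq kits, and the strand setting is not given in the sources used here. The 5 counters of unassigned reads were left out, among them reads not aligned uniquely (35.1% to 36.5%).

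Genotypes were compared with edgeR 4.0.16 (R 4.3.3; quasi-likelihood test, TMM, filterByExpr with a minimum count of 10, Benjamini-Hochberg adjustment over all genes tested). The SE is the size of the log2 fold change over the square root of F. An exact permutation test of 2 against 2 libraries cannot give a two-sided p under 0.333. Log2 CPM used a prior count of 2. The correction for GC content and length removes splines (5 degrees of freedom) as offsets. Replicates differed by more than sampling noise (chi-square per degree of freedom 10.8 and 12.8). Floors cover counting error only, whereas the SE and the p-values also take in the spread between libraries.

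The RNAs, lists and tests were chosen with earlier results of these data known. Genes named are the 8 RNAs, the extremes of each list, genes past the threshold, the 5 nearest profiles and the nearest neighbors. Some genes that this rule names are not reported here. Positions, lengths and GC content came from GENCODE M1 (NCBIM37) and, for AA465934, from its matched RefSeq span. Alternatives were other scalings, filters, DESeq2 1.42.0, the replicate block, this correction and each library left out.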

Additional observations from a re-analysis of the deposited data

How the results depend on the processing

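The log2 fold change of AA465934 ran from -4.08 to -3.72 over all alternatives, both ends when 1 library was left out, and its difference from the median of the 7 other RNAs from -4.09 to -3.68. The count of genes past the threshold, 2 in the report, was 5 with every gene of at least 1 count, 278 with DESeq2, 14 when the GC and length correction was combined with a block, 184 with the replicate block alone, and 0 to 193 with each library left out. It remained 2 under the other scalings, with a mean of at least 50 counts, and under the correction alone. AA465934 did not pass when either FBN-ARO-KO+GCI library was left out, and DESeq2 gave it no adjusted p. The replicate numbers are not said to mark a shared batch, and same-numbered deviations correlated at 0.129, so the block result is given here only.

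Of the other long noncoding RNAs, 1 passed with the correction and the block, 2900097C17Rik, which is 0.15 (SE 0.08) in the report's fit, and 0 under the other alternatives. The median log2 fold change of the 7 RNAs ran from -0.13 to 0.13 with each library left out, 0.13 being without FLOX+GCI replicate 2, and was -0.16 with the GC and length correction. Over all alternatives Neat1 ran from -0.27 to -0.07 and Gas5 from 0.15 to 0.46 without a change of sign. Malat1 (-0.48 to 0.37), Meg3 (-0.38 to 0.12), Miat (-0.25 to 0.15), Snhg11 (-0.12 to 0.13) and Rian (-0.22 to 0.11) changed sign under at least 1 alternative, and the cause was not tested. Depth limits AA465934 in FBN-ARO-KO+GCI, where it had 16 and 11 counts.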

Other observations

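Short structured RNAs were listed beside the long noncoding RNAs. Of 7 such RNAs, 5 were in the files and 2 passed the filter on low counts. Rmrp, the RNA component of RNase MRP, had 20 and 35 counts in the FLOX+GCI libraries against 16 and 17 in the FBN-ARO-KO+GCI libraries, a log2 fold change of -1.06 (SE 0.43). Rpph1, the RNA component of RNase P, had 32 and 55 counts against 27 and 24, a log2 fold change of -1.10 (SE 0.37). Both were lower at an unadjusted p of 0.05 in edgeR, against 7.82% of all genes tested, and 0 of them by DESeq2. Neither passed the adjusted threshold (adjusted p = 0.283 for Rmrp and 0.248 for Rpph1, edgeR), and DESeq2 gave neither an adjusted p. Terc, the RNA of telomerase, Vaultrc5, the vault RNA, and Bc1, a dendritic RNA of neurons, stayed below the filter with at most 2 counts in a library. How well these libraries capture short structured RNAs is not known here. Low counts therefore do not show that such RNAs were absent from the tissue. The part of capture in the values of Rmrp and Rpph1 was not tested. Snord7, the snoRNA gene within AA465934, had 0 counts in all 4 libraries, and Snord47, within Gas5, had 7 and 3 counts against 7 and 14. As for the microRNA genes within Meg3, such counts do not show whether the small RNAs were present. H19, an imprinted RNA below the filter, had 8 and 10 counts against 4 and 0.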
